A study of Homo sapiens with 4 samples.

Results

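Open chromatin around 8 genes of receptor tyrosine kinase signalling was described in the cell line 786-O, derived from a human clear cell carcinoma of the kidney: the receptor genes MET, EGFR, ERBB2 and AXL, and the ligand genes HGF, TGFA, GAS6 and VEGFC. The assay was ATAC-seq, in which a transposase cuts accessible DNA, and each of the 4 libraries is known here from the peak list its authors deposited. The 2 DEK KO libraries came from a Cas9-expressing clone that had received LentiGuide-Puro carrying guide RNAs against DEK and was then sorted to single cells. The 2 WT control libraries came from the Cas9-expressing cells with a wild-type DEK gene, so Cas9 expression in 786-O cells was shared by both groups. Genotype and clonal origin cannot be told apart in these 4 libraries. DEK encodes a chromatin protein that binds DNA and histones. Whether libraries of one genotype stem from different clones or cultures is not in the labels, and the peak names of both DEK KO lists carry differing number tags whose meaning is not given. Each p-value over libraries therefore measures only how these samples vary, and that variation may be technical. A peak list does not show whether DEK protein was lost. For each gene the window was its RefSeq span on GRCh38 plus 100 kb on each side, and the 8 windows held 251 of the 138467 merged regions of the series, where peaks of the 4 lists that overlapped by at least 1 bp form one region.

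Receptor tyrosine kinases sit in the cell membrane and signal through cascades of kinases and through STAT proteins when a ligand brings receptor molecules together. HGF is the ligand of MET, TGFA is a ligand of EGFR, ERBB2 has no ligand of its own and signals in dimers with other members of the EGFR family, GAS6 is the ligand of AXL, and VEGFC activates the VEGF receptors of lymphatic and blood endothelium. In clear cell renal carcinoma, loss of VHL stabilises hypoxia-inducible factors, MET, AXL and VEGF receptors are drug targets, and TGFA acts on EGFR of the same cells.

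The sequence at the gene starts is shown first, for the members whose starts differed most in what the peak lists held: MET, with a high-ranking region in every list; EGFR, which has 2 listed starts with a region in every list; and HGF and VEGFC, whose starts, like that of GAS6, lay in no region of any list. Each window runs from 250 bases before to 50 bases after the start, is taken from RefSeq on GRCh38.p14 and is written 5' to 3' on the strand of the gene. All 8 members matched the RefSeq table, with 11 windows. Capitals mark matches on either strand to 6 motifs, so that a match on the other strand appears as its reverse complement: CACGTG (an E-box), ACGTG (the core of the hypoxia response element, and also contained in the E-box), TGANTCA (the AP-1 motif), GGGCGG (a GC box), CCAAT and TATAAA. The windows read as follows.
MET, chr7:116671946-116672245, plus strand: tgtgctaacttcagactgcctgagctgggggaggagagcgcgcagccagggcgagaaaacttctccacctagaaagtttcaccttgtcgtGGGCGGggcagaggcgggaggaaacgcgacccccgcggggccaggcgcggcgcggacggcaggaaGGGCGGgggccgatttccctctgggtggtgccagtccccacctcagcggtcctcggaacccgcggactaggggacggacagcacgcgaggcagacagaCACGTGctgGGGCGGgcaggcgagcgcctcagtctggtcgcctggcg
EGFR, chr7:55018767-55019066, plus strand: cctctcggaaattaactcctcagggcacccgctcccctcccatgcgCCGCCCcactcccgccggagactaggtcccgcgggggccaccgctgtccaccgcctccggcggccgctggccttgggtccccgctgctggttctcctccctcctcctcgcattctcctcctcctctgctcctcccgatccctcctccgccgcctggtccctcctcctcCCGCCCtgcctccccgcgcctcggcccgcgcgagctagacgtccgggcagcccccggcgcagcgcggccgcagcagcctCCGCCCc
EGFR second start, chr7:55109589-55109888, plus strand: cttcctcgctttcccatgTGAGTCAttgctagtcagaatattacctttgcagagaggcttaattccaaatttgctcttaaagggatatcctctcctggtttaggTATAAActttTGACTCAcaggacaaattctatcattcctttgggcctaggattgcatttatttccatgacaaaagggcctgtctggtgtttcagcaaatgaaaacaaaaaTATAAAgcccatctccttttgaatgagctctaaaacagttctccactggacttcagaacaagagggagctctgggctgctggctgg
HGF, chr7:81769998-81770297, minus strand: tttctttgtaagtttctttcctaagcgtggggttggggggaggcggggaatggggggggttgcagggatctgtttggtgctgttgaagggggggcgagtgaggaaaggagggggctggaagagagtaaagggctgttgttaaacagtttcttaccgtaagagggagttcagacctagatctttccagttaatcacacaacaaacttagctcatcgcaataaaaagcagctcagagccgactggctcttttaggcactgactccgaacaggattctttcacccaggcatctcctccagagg
VEGFC, chr4:176792873-176793172, minus strand: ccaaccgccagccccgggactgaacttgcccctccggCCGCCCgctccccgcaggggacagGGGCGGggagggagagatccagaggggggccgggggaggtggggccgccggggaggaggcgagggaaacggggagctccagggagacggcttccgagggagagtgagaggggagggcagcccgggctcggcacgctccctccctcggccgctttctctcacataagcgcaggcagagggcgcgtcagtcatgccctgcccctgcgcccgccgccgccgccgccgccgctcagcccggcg

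The MET window held 1 CACGTG, whose first base lay 3 bases after the start and which accounts for both of its ACGTG matches, and 3 GGGCGG. The first EGFR start held 3 GGGCGG, the VEGFC start 2, and the HGF start none of the 6 motifs. The second EGFR start, deep inside the gene, held 2 TGANTCA and 2 TATAAA and no GGGCGG. Its GC content was 42.0% and it had 1 CpG, against 75.3% and 33 CpG at the first EGFR start. The MET, HGF and VEGFC windows had GC contents of 69.3%, 51.0% and 76.3%, with 30, 7 and 32 CpG. Over all 35116 RefSeq windows of the same length the median GC content was 58.7% and the median number of CpG was 14. CACGTG occurred in 7.26% of these windows, ACGTG in 21.4%, TGANTCA in 7.71%, GGGCGG in 45.0%, CCAAT in 34.6% and TATAAA in 11.5%. Among the members not shown, the second AXL start held 2 ACGTG outside any CACGTG, ERBB2 held 1 TGANTCA and 1 CCAAT, and GGGCGG occurred 4 times at TGFA, 3 times at GAS6 and 2 times at the first AXL start. A motif match is a description of the letters and not a binding site.

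The DEK KO lists held 102760 and 99508 peaks on chromosomes 1 to 22 and X, and the WT control lists 89563 and 90409, which makes the DEK KO lists 1.12 times as long on average. Read depth is unknown because the lists hold no counts, so a longer list can reflect depth as well as accessibility, and these cannot be told apart. A region at the gene start was called in all 4 lists for the renal epithelial genes PAX8, CDH16 and KRT8 and for VIM and VEGFA, and in none for PAX2, LHX1, KRT18 and CA9. None of 3 leukocyte, 3 endothelial and 2 hepatocyte markers had one, while of 2 neuronal markers SYT1 had one in all 4 lists. Below, a within-list percentile gives the rank of a peak by the authors' −log10 p among all peaks of its list, with 100 at the top. A region is called KO-only when both DEK KO lists and neither WT control list hold it, and WT-only in the opposite case.

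Of the 251 regions, 126 (50.2%) were called in all 4 lists, 23 in 3 lists, 66 in 1 list and 12 in 1 list of each genotype. KO-only regions numbered 13 (5.18%), against 6.26% of all merged regions, and WT-only regions 11 (4.38%), against 2.57% of all merged regions. Of the 11 WT-only regions, 4 lay in the EGFR window. How these shares stood to the background depended on the setting. With lists of equal length the windows held 6 KO-only regions (2.61%, against 5.16% of all regions) and 13 WT-only regions (5.65%, against 3.96%). Leaving out a library lets regions with 1 fewer list count, in the series as in the windows. When DEK KO replicate 1 was dropped, 44 KO-only regions made up 18.3% of those in the windows, against 17.2% of all regions, and 18 WT-only regions 7.5%, against 6.68%. When DEK KO replicate 2 was dropped, 28 KO-only regions made up 12.7%, against 17.3%, and 13 WT-only regions 5.88%, against 4.73%. When WT control replicate 1 was dropped, 19 KO-only regions made up 7.82%, against 9.86%, and 21 WT-only regions 8.64%, against 9.06%. When WT control replicate 2 was dropped, 21 KO-only regions made up 8.61%, against 9.61%, and 22 WT-only regions 9.02%, against 7.96%.

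**Figure D1:**
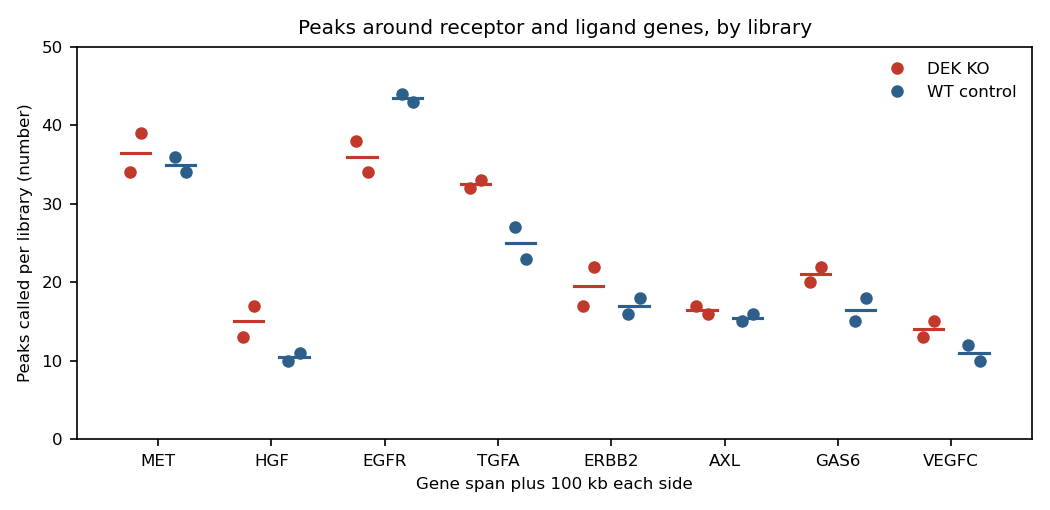
Number of peaks called in each library (vertical axis) in the window of each gene, the gene span plus 100 kb on each side; dots are libraries, DEK KO left of WT control, and lines are group means of 2 libraries. EGFR is the member with fewer peaks in both DEK KO libraries (38 and 34) than in both WT control libraries (44 and 43), while HGF, TGFA, GAS6 and VEGFC had more in both DEK KO libraries.

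Peak numbers separated the genotypes completely at 5 of the 8 genes. HGF, TGFA, GAS6 and VEGFC, all of them ligand genes, had more peaks in both DEK KO libraries than in both WT control libraries, as did 33.4% of the 19562 gene windows with peaks. EGFR had fewer in both DEK KO libraries, as did 4.53% of gene windows. MET, ERBB2 and AXL overlapped between genotypes. With lists of equal length only EGFR, with a difference of -11 peaks, and TGFA, with 4, still separated the genotypes, while HGF, GAS6 and VEGFC overlapped, with differences of 1, 2.5 and 0.5 in place of 4.5, 4.5 and 3. With 2 libraries a group the exact permutation test over the 6 assignments, two-sided, cannot give a p below 0.333, so none of these differences can pass a test at 0.05. Over all gene windows the ratio of DEK KO to WT control peaks had a median of 1.10, and its 5th and 95th percentiles were 0.833 and 1.57.

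MET encodes the HGF receptor and lies on the long arm of chromosome 7, with its gene span at chr7:116672196-116798377 on the plus strand. Its window, which also holds CAPZA2, had 34 and 39 peaks in the DEK KO libraries, against 36 and 34 in the WT control libraries. The means were 36.5 ± 3.54 and 35.0 ± 1.41 peaks (SD, n = 2 each; exact permutation p = 1), and the 2 genotypes overlapped. Without DEK KO replicate 2 the difference of means changed sign, to -1. The 5 Mb on each side of MET, window included, had 429 and 467 peaks in DEK KO, against 343 and 379 in WT control, a ratio of 1.24 beside 1.04 in the MET window. Of its 45 regions 28 were in all 4 lists, 3 were KO-only and 2 were WT-only.

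The region over the MET start, chr7:116671731-116673348, ranked near the top of every list, at within-list percentiles of 96.1 and 99.7 in DEK KO and 96.7 and 97.9 in WT control. The authors' summits of its highest peaks lay between 44 and 139 bases before the start. Its rank did not differ beyond the spread between libraries (rank score difference 0.31 ± 0.30 SE, limma adjusted p = 0.608; the score is defined with the rank test below). The start regions closest to it by Euclidean distance over the 4 percentiles, among 7879 genes on other chromosomes, were those of GSK3A (distance 0.955) and MBD4 (distance 1.02). GSK3A stood at 95.7 and 98.9 in DEK KO and 96.5 and 98.0 in WT control. The KO-only region of highest rank, chr7:116616085-116617021, lay 55175 bp upstream of the start at percentiles of 45.2 and 44.8. The other 2 KO-only regions, 1 inside the gene and 1 downstream, and the 2 WT-only regions, both inside the gene, had percentiles between 1.10 and 23.6.

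HGF, the ligand of MET, lies at chr7:81699010-81770047 on the minus strand, with no other protein-coding gene in its window. Its window had 13 and 17 peaks in DEK KO, against 10 and 11 in WT control, and every DEK KO value was above every WT control value. The means were 15.0 ± 2.83 and 10.5 ± 0.707 peaks (SD, n = 2 each; exact permutation p = 0.333), a ratio of 1.43 that stood at percentile 90.4 of all gene windows. The difference of 4.5 peaks became 1 with lists of equal length and 0.5 in the gene span alone (exact permutation p = 1 in both), where the genotypes overlapped. Peaks covered 9.49 and 9.38 kb in DEK KO and 7.12 and 6.94 kb in WT control. The 5 Mb on each side of HGF, window included, had 293 and 354 peaks in DEK KO, against 243 and 251 in WT control, a ratio of 1.31. No list had a region within 1 kb of the HGF start, as for 32.6% of 13792 gene starts. The nearest region called in all lists, chr7:81775961-81776943, lay 5914 bp upstream.

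HGF had 3 KO-only regions and no WT-only region, while 1197 of 19974 gene windows (5.99%) likewise had at least 3 KO-only regions and none that was WT-only. The highest-ranking one-genotype region of all 8 windows was among them, chr7:81715975-81716415, inside the gene and 16965 bp from its 3' end. It stood at within-list percentiles of 63.5 and 61.3 in DEK KO with the authors' fold enrichments of 8.92 and 10.0, and was absent from both WT control lists. The peaks were 377 and 441 bp wide. The other 2 KO-only regions were downstream of the gene, at percentiles of 7.03 and 36.4, and upstream of it, at 7.03 and 10.5. With lists of equal length HGF had 1 KO-only region.

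EGFR, the receptor of TGFA and EGF, lies on the short arm of chromosome 7 at chr7:55019017-55211628 on the plus strand, with no other protein-coding gene in its window. It had the most regions of the 8 genes, 48, of which 31 were called in all 4 lists. Its window was also the longest, at 393 kb. Its 12.2 regions per 100 kb were fewer than at MET (13.8), ERBB2 (13.3) and TGFA (12.7). Its window had 38 and 34 peaks in DEK KO, against 44 and 43 in WT control, with no overlap. The means were 36.0 ± 2.83 and 43.5 ± 0.707 peaks (SD, n = 2 each; exact permutation p = 0.333). The ratio of 0.828 stood at percentile 4.43 of all gene windows. Peaks covered 34.1 and 25.4 kb in DEK KO and 37.4 and 40.8 kb in WT control, again with no overlap.

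EGFR had 4 WT-only regions and no KO-only region. Of 19974 gene windows, 15 (0.0751%), EGFR among them, had at least as many WT-only regions and no KO-only region. This cut was taken from the EGFR counts and the windows were not matched for length, so the share is only a description. With flanks of 50 kb or none EGFR had 2 WT-only regions. Inside the gene, chr7:55091553-55092456 stood at within-list percentiles of 48.2 and 36.6 in WT control, and chr7:55080962-55081614 at 18.4 and 27.4. Downstream of the gene, chr7:55271051-55271520 stood at 22.9 and 27.5 and chr7:55287380-55287663 at 2.39 and 5.99. All 4 stood below the middle of both WT control lists. Without DEK KO replicate 1 the window had 8 WT-only regions and 1 KO-only region, without DEK KO replicate 2 it had 2 KO-only regions, and without WT control replicate 2 it had 8 WT-only regions.

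The region over the first EGFR start, chr7:55018641-55019106, had percentiles of 41.0 and 53.6 in DEK KO and 51.3 and 57.1 in WT control, in the middle of each list. Its rank did not differ beyond the spread between libraries (rank score difference -0.36 ± 0.32 SE, limma adjusted p = 0.572). The most similar start regions by the same distance were those of CCDC39, at 39.1 and 54.9 in DEK KO and 48.6 and 59.1 in WT control, and of BCL11A, at 42.8 and 53.0 in DEK KO and 55.0 and 56.7 in WT control. A second region 540 bp inside the gene, chr7:55019557-55021304, had peaks covering 676 and 482 bp in DEK KO, against 1177 and 1332 bp in WT control. Its percentiles were 39.7 and 13.2 in DEK KO and 49.8 and 54.3 in WT control (difference -1.05 ± 0.39 SE, limma adjusted p = 0.113). The second start, whose AP-1 and TATA matches are printed above, lay in chr7:55109291-55109869, at percentiles of 33.1 and 4.40 in DEK KO and 15.7 and 16.8 in WT control, which overlapped.

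**Figure D2:**
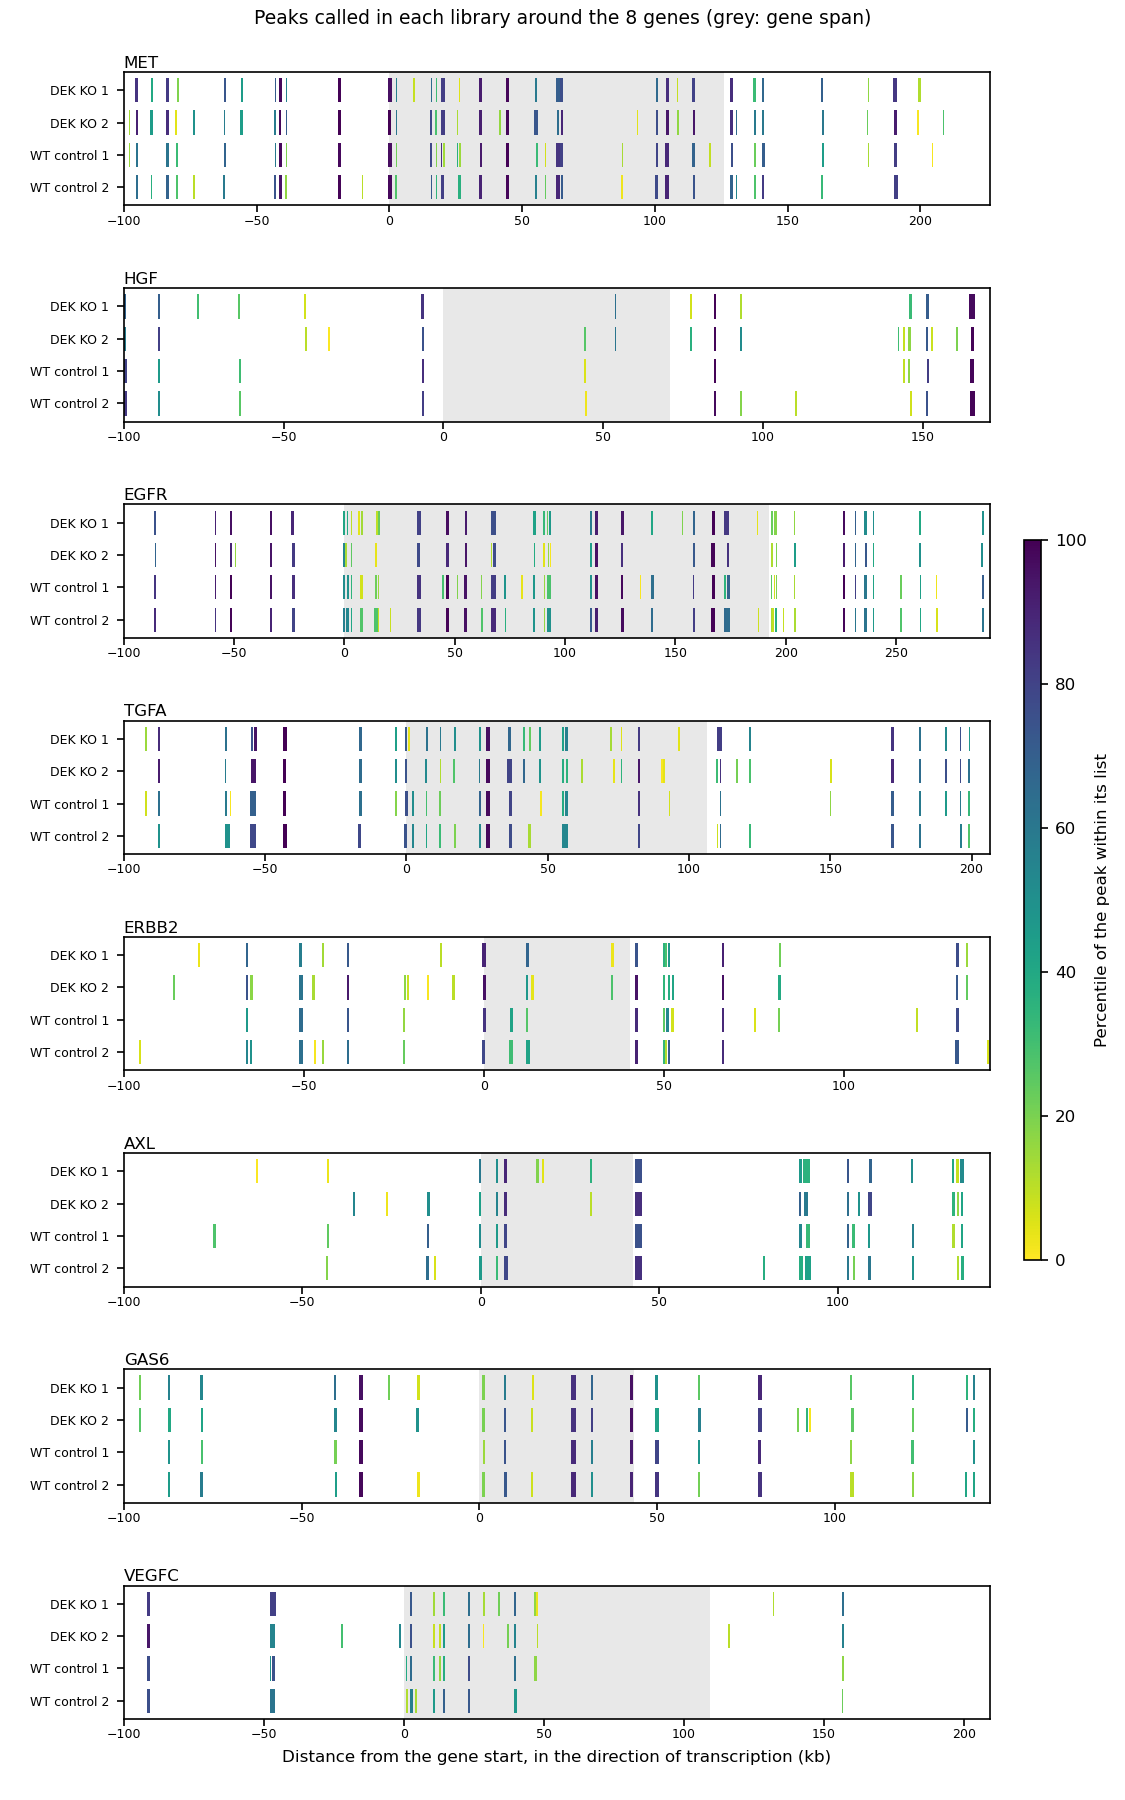
Position of every peak in the 8 windows, 1 row per library with the DEK KO rows above the WT control rows; the horizontal axis is the distance from the gene start in kb in the direction of transcription, grey marks the gene span, and colour gives the within-list percentile. EGFR and MET have the longest windows and the most regions, 48 and 45, and the HGF, GAS6 and VEGFC starts have no region over them.

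TGFA, a membrane-anchored ligand of EGFR that is shed by ADAM17, lies at chr2:70447284-70553826 on the minus strand, alone in its window. It had 32 and 33 peaks in DEK KO, against 27 and 23 in WT control, with no overlap. The means were 32.5 ± 0.707 and 25.0 ± 2.83 peaks (SD, n = 2 each; exact permutation p = 0.333), and the ratio of 1.30 stood at percentile 82.4 of all gene windows. Peaks covered 23.3 and 22.5 kb in DEK KO and 18.3 and 20.2 kb in WT control. The region over the start, chr2:70553133-70554512, was called in all lists at percentiles of 71.7 and 74.1 in DEK KO and 75.7 and 74.3 in WT control (rank score difference -0.19 ± 0.23 SE, limma adjusted p = 0.718). The start regions most like it were those of GNAI1 and KCTD11.

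The top-ranking region of the TGFA window, chr2:70596214-70597467, lay 42388 bp upstream of the start. Among the regions called in all lists it stood at percentiles of 99.97 and 99.79 in DEK KO and 99.81 and 99.93 in WT control. TGFA also held the WT-only region of highest rank in the 8 windows, chr2:70551143-70551918, 1908 bp inside the gene. Its percentiles were 51.3 and 53.9 in WT control, with the authors' fold enrichments of 3.32 and 3.13, and it was absent from both DEK KO lists. Its 2 KO-only regions lay further inside the gene, at 32.5 and 67.2 for chr2:70511942-70512312 and at 4.97 and 35.0 for chr2:70477503-70477945.

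ERBB2 lies at chr17:39688094-39728658 on the plus strand in a gene-rich window that also holds NEUROD2, PPP1R1B, STARD3, TCAP, PNMT, PGAP3, MIEN1, GRB7 and IKZF3, so distal regions there cannot be assigned to ERBB2. It had 17 and 22 peaks in DEK KO, against 16 and 18 in WT control, which overlapped (19.5 ± 3.54 and 17.0 ± 1.41, SD, n = 2 each; exact permutation p = 0.667). Without DEK KO replicate 2 the difference was 0. The region over the start, chr17:39687556-39688676, stood at within-list percentiles of 90.2 and 95.7 in DEK KO and 85.1 and 78.2 in WT control, so the libraries did not overlap, but the difference did not pass the rank test (0.59 ± 0.23 SE, limma adjusted p = 0.136). Without DEK KO replicate 1 it passed, at an adjusted p of 0.049, and over its alternatives the adjusted p lay between 0.049 and 0.640. The start regions most like it were those of TUBB4B and LZTR1. Of the 2 WT-only regions, chr17:39695103-39696163 lay 7009 bp inside the gene at percentiles of 42.0 and 30.9, and the other lay upstream at 16.0 and 23.8. The 2 KO-only regions stood at 2.86 and 28.5, near the 3' end of ERBB2, and at 15.1 and 24.1, downstream.

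AXL encodes the GAS6 receptor and lies at chr19:41219223-41261766 on the plus strand, in a window with CYP2F1, CYP2S1, HNRNPUL1, CCDC97, TGFB1 and B9D2. It had 17 and 16 peaks in DEK KO, against 15 and 16 in WT control (16.5 ± 0.707 and 15.5 ± 0.707, SD, n = 2 each; exact permutation p = 0.667). With lists of equal length the difference was -1.5. The region over its first start, chr19:41218708-41219325, stood at percentiles of 60.1 and 43.8 in DEK KO and 52.0 and 46.2 in WT control, and its rank score difference was -0.02 ± 0.31 SE (limma adjusted p = 0.981). The region 34 bp before its second start, chr19:41225563-41226721, ranked higher, at 89.4 and 87.5 in DEK KO and 79.0 and 78.9 in WT control, without overlap between genotypes (0.37 ± 0.22 SE, limma adjusted p = 0.350). The start regions most like that of the first start were those of POMGNT2 and BMP8B. AXL had 1 KO-only region, inside the gene at percentiles of 36.2 and 10.5, and 1 WT-only region, downstream at 31.8 and 20.9.

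GAS6, a vitamin K-dependent ligand of AXL, TYRO3 and MERTK, lies at chr13:113820549-113864076 on the minus strand, in a window with GRK1, TMEM255B and C13orf46. It had 20 and 22 peaks in DEK KO, against 15 and 18 in WT control, with no overlap (21.0 ± 1.41 and 16.5 ± 2.12, SD, n = 2 each; exact permutation p = 0.333). No region lay over its start. The nearest, chr13:113862525-113863315, began 761 bp inside the gene and ranked low in every list, at percentiles of 19.8 and 20.6 in DEK KO and 15.0 and 19.6 in WT control. The region near its 3' end, chr13:113820821-113821790, ranked high, at 96.1 and 96.4 in DEK KO and 93.3 and 90.1 in WT control (0.36 ± 0.22 SE, limma adjusted p = 0.372). GAS6 had 1 KO-only region, 95251 bp upstream at percentiles of 21.6 and 26.4, and no WT-only region.

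VEGFC, a growth factor of lymphatic vessels, lies at chr4:176683538-176792922 on the minus strand, alone in its window. It had the fewest regions of the 8 genes, 19, and 13 and 15 peaks in DEK KO, against 12 and 10 in WT control, with no overlap (14.0 ± 1.41 and 11.0 ± 1.41, SD, n = 2 each; exact permutation p = 0.333). With only peaks of a −log10 q of at least 5 the difference changed sign, to -1.5. Its start, which is GC-rich, lay in no region. The nearest was a WT-only region 767 bp inside the gene, chr4:176791337-176792155, at percentiles of 39.2 and 11.8 in WT control. Of 13792 gene starts, 0.471% had a WT-only region and 0.638% a KO-only region as the nearest region within 1 kb. The KO-only region of VEGFC, inside the gene, stood at 13.6 and 1.07.

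Ranks could be tested at the 62686 regions of the series that all 4 lists held. Within each library these regions were ranked by −log10 p, and the ranks were turned into normal scores. In these scores 0 is the median of the 62686 regions in that library and 1 a standard deviation. At each region DEK KO minus WT control was tested with limma. Of these regions 3.53% ranked higher and 2.38% lower in DEK KO at an adjusted p under 0.05. Of the 126 in the 8 windows, 5 ranked higher and 5 lower, or 3.97% each way. Without overlap between the genotypes, 30 of the 126 ranked higher in DEK KO and 38 lower, against 24.3% and 25.7% of all tested regions. Their median difference was -0.026, against -0.022 over all tested regions. Ranked by the authors' fold enrichment in place of −log10 p, no region of the 8 windows was called, and 150 regions of the series were called higher and 33 lower. Fewer cells with an open site and less opening per cell cannot be told apart in these bulk lists. Values in the next 2 paragraphs are percentiles among the 62686 regions.

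**Figure D3:**
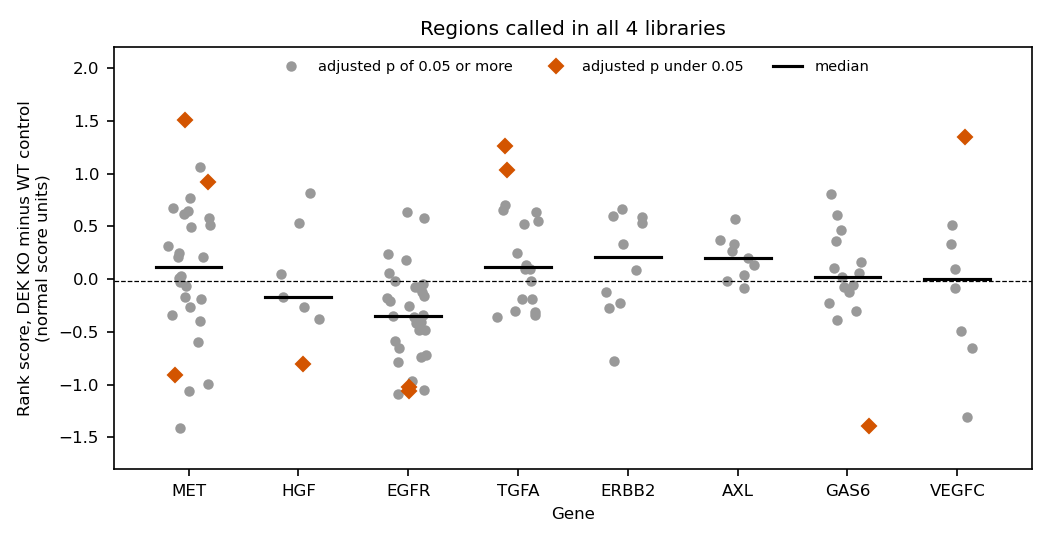
Difference in rank score, DEK KO minus WT control (vertical axis, normal score units), for every region called in all 4 lists, by gene; diamonds are the 10 regions with an adjusted p under 0.05, black lines are medians per gene and the dashed line is the median of all tested regions. Most EGFR points lie below the dashed line, and the other genes have points on both sides of it.

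At the receptor genes, 5 regions passed. MET had 2 that rose in DEK KO, both upstream. The first, chr7:116576580-116577703, 94493 bp from the start, stood at 75.5 and 85.3 in DEK KO and 46.2 and 49.4 in WT control (0.92 ± 0.23 SE, limma adjusted p = 0.022). The second, chr7:116633206-116633851, 38345 bp from the start, stood at 31.9 and 55.6 in DEK KO and 5.83 and 3.72 in WT control, and had the largest difference of the 5 (1.51 ± 0.37 SE, limma adjusted p = 0.019). The region that fell at MET, chr7:116735028-116736342, lay inside the gene and stood at 52.6 and 46.6 in DEK KO, against 78.3 and 84.3 in WT control (-0.90 ± 0.23 SE, limma adjusted p = 0.022). Both EGFR regions fell and were among the top regions of the WT control lists. The one upstream, chr7:54967122-54968202, stood at 93.0 and 84.5 in DEK KO and 99.3 and 98.5 in WT control (-1.06 ± 0.24 SE, limma adjusted p = 0.013). The one inside the gene, chr7:55064940-55066572, stood at 94.7 and 81.7 in DEK KO and 99.0 and 98.7 in WT control (-1.02 ± 0.25 SE, limma adjusted p = 0.020). Ranked by fold enrichment, the differences of the 2 EGFR regions were -0.02 and -0.20 (limma adjusted p = 0.983 and 0.819), and over all their alternatives the adjusted p lay between 0.0014 and 0.983 and between 0.0023 and 0.819. At ERBB2 and AXL no region passed. Of these 5 calls, all 5 held without DEK KO replicate 1, and none held once DEK KO replicate 2 was dropped. Without WT control replicate 1 the second MET region held, and without WT control replicate 2 none did. No sign changed.

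At the ligand genes, TGFA had 2 regions that rose, both upstream of its start. The region chr2:70606766-70609000 stood at 91.9 and 91.2 in DEK KO and 57.5 and 68.7 in WT control (1.04 ± 0.22 SE, limma adjusted p = 0.0079). The region chr2:70640846-70641860, 87020 bp upstream, stood at 79.8 and 87.7 in DEK KO and 49.0 and 30.5 in WT control (1.27 ± 0.25 SE, limma adjusted p = 0.0045). VEGFC had 1 that rose, chr4:176635581-176636423, 47115 bp beyond its 3' end, at 43.2 and 36.4 in DEK KO and 4.41 and 6.51 in WT control (1.35 ± 0.36 SE, limma adjusted p = 0.030). GAS6 had 1 that fell, chr13:113813569-113814768, 5781 bp beyond its 3' end, at 24.9 and 21.5 in DEK KO and 71.0 and 77.9 in WT control. That was the largest fall of the 10 called regions (-1.40 ± 0.26 SE, limma adjusted p = 0.0034). At HGF, chr7:81869108-81870613 at the upstream edge of the window fell, at 49.3 and 38.3 in DEK KO and 72.2 and 76.1 in WT control (-0.81 ± 0.24 SE, limma adjusted p = 0.049). In all 5 the libraries of one genotype lay apart from those of the other. Of these 5 calls, the VEGFC call was lost without DEK KO replicate 1, and all but GAS6 once DEK KO replicate 2 was dropped. Without WT control replicate 1 the HGF and VEGFC calls and that of the nearer TGFA region were lost, and without WT control replicate 2 all but the nearer TGFA region were. No sign changed.

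EGFR was the member whose regions leaned furthest one way. Of its 31 regions in all lists, 26 (83.9%) ranked lower in DEK KO, against 52.0% of all tested regions, and their median difference was -0.35. Inside the gene 16 of 17 ranked lower, with a median of -0.41, and in the flanks 10 of 14, with a median of -0.12. Without overlap between genotypes, 17 of the 31 ranked lower and 1 higher, against 25.7% and 24.3% of all tested regions. The lean depended on the measure: ranked by fold enrichment, 15 of 31 were lower and the median difference was 0.0036. The other members had medians between -0.17 at HGF and 0.21 at ERBB2.

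The same direction was present around EGFR. In the 5 Mb on each side, outside its window, 76 of 101 regions (75.2%) ranked lower in DEK KO, with a median of -0.42. Of these 101, 18 (17.8%) were called lower and 2 (1.98%) higher, against 2.38% and 3.53% of all tested regions. In the EGFR window the called shares were 6.45% lower and 0% higher, so the share called lower was larger around EGFR than at it. On the first 60 Mb of chromosome 7, EGFR included, 948 of 1310 regions (72.4%) ranked lower, with a median of -0.29, whereas beyond 60 Mb, where MET and HGF lie, 42.5% of 2282 did, with a median of 0.083. By fold enrichment the rest of the neighbourhood had a median of -0.19 with 69 of 101 lower, and the first 60 Mb a median of -0.080. The median score of the EGFR regions minus that of the rest of the neighbourhood was 0.045 and 0.124 in DEK KO and -0.153 and -0.252 in WT control. That difference of 0.287 between genotypes had an exact permutation p of 0.333, the smallest possible. By these library medians, the EGFR regions ranked higher relative to the regions around them in both DEK KO libraries than in both WT control libraries. Taken region by region, the share that ranked lower was larger at EGFR (83.9%, against 75.2%), with medians of -0.35 and -0.42. The 2 summaries did not give one order. Against the rest of the first 60 Mb the difference of library medians between genotypes was 0.086 (exact permutation p = 1).

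**Figure D4:**
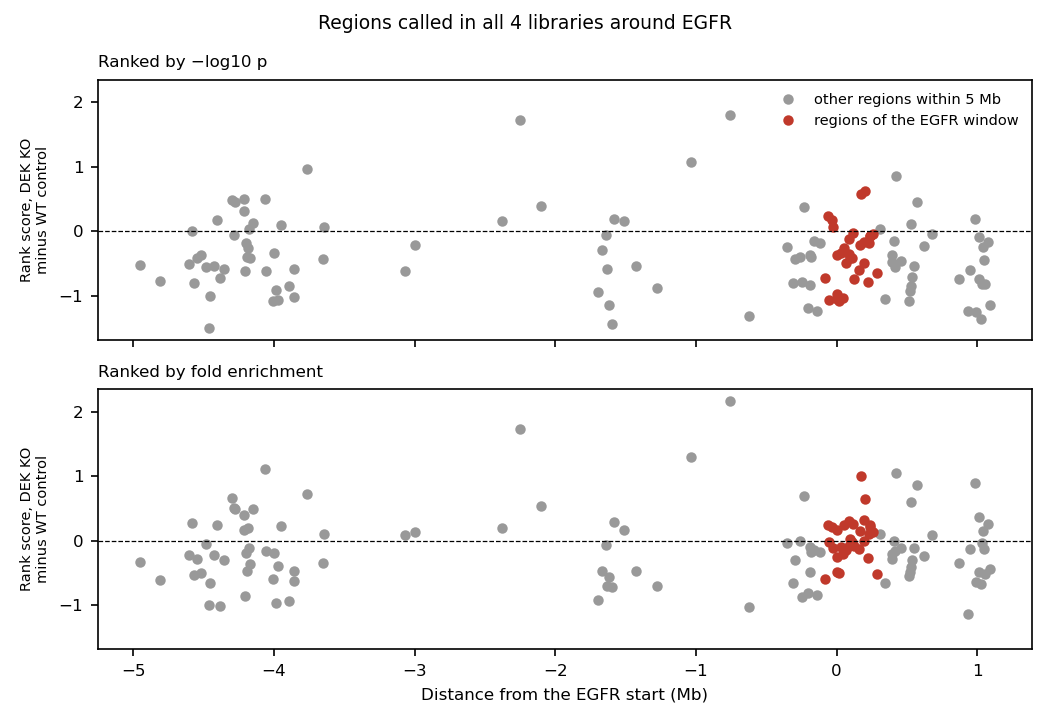
Difference in rank score, DEK KO minus WT control (vertical axes), of every region called in all 4 lists within 5 Mb of EGFR, by distance from the EGFR start in Mb; red points are regions of the EGFR window, the upper panel ranks by −log10 p and the lower by fold enrichment. In the upper panel 26 of 31 red points and 76 of 101 grey points lie below 0, and in the lower panel 15 of 31 and 69 of 101.

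Peak numbers gave another order than the library medians of the rank scores. EGFR took 18.7% and 19.5% of the peaks within 5 Mb in DEK KO, against 22.6% and 21.4% in WT control (19.1 ± 0.581% and 22.0 ± 0.828%, SD, n = 2 each; exact permutation p = 0.333). The whole neighbourhood had 203 and 174 peaks in DEK KO, against 195 and 201 in WT control, and without the EGFR window its ratio was 0.987, beside 0.828 for EGFR. The first 60 Mb of chromosome 7 had a ratio of 0.947 and the rest of the chromosome one of 1.22. Of 21 other protein-coding genes within 2 Mb of EGFR, SEC61G, LANCL2, ZNF713, MRPS17 and NIPSNAP2 had fewer peaks in both DEK KO libraries and CCT6A had more. Over all gene windows with peaks, 4.53% had fewer and 33.4% more. Some of the 21, such as ZNF479, had no peak in any list and could not differ. The windows of ZNF713, MRPS17 and NIPSNAP2 overlap and share peaks, so these genes are not separate observations. SEC61G, a subunit of the protein translocation channel, had 12 and 11 peaks in DEK KO, against 15 and 14 in WT control. LANCL2, whose window overlaps that of EGFR, had 14 and 14 in DEK KO, against 15 and 17 in WT control. Of these 21 genes 6 had a WT-only region and 0 a KO-only region, against 29.4% and 57.5% of all protein-coding genes. LANCL2 shares its 2 WT-only regions with EGFR. The windows of SEPTIN14, ZNF713, MRPS17, NIPSNAP2 and PSPH overlap and hold the same 1 WT-only region. WT-only regions made up 8.33% of the 48 regions of the EGFR window, 0.546% of the 183 in the neighbourhood below it and 1.92% of the 52 above it. On the first 60 Mb of chromosome 7, EGFR included, 4.40% of 2929 regions were WT-only and 3.28% KO-only. Beyond 60 Mb the shares were 2.15% and 6.62% of 5956 regions.

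The wider pathway was described with 63 further genes. KO-only regions occurred in the windows of 41 (65.1%), against 57.5% of all protein-coding genes, and WT-only regions in 13 (20.6%), against 29.4%. More peaks in both DEK KO libraries were found at 21 (33.3%, against 33.4% of gene windows) and fewer in both at 0 (against 4.53%). The median ratio was 1.08, against 1.10 over all gene windows. By role, KO-only and WT-only regions occurred at 5 and 3 of 10 other receptors, 6 and 4 of 11 other ligands, 5 and 0 of 9 ligand activators and inhibitors, 14 and 2 of 19 adaptors and kinases, and 11 and 4 of 14 genes of feedback and degradation.

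Some of the genes with the largest differences between KO-only and WT-only counts in these lists are given here. PLCG1, a phospholipase that EGFR and MET recruit, had 5 KO-only regions and no WT-only region, with 23 and 21 peaks in DEK KO against 17 and 13 in WT control. PGF, a ligand of FLT1, had 4 KO-only regions and no WT-only region, with 19 and 20 peaks in DEK KO against 10 and 13 in WT control. HPN, which encodes a protease that activates HGF, and SPRY4, a feedback inhibitor, had 3 and 0 each. In the opposite direction, ERBB4 had 2 KO-only against 4 WT-only regions, with 35 and 27 peaks in DEK KO against 37 and 32 in WT control.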

How the data were processed

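Per the labels, 4 ATAC-seq libraries of 786-O cells were analysed, 2 DEK KO and 2 WT control. The extraction text in the labels describes RNA, so the making of the ATAC libraries is not stated there. The submitters' processing notes list, without settings, MACS2 2.2.7.1 among the peak and read tools, with cutadapt 1.18 and Bowtie2 2.2.5, then Picard 2.26.9 and SAMtools 1.7, and further ChIPseeker 1.32.1, DiffBind 3.6.5 and deepTools 3.5.1, and the build GRCh38. A shift of reads for the transposase is mentioned in none of these. The authors deposited 1 peak list per library, so peaks were not called on pooled samples. The deposited columns hold a score, the fold enrichment as a ratio over background at the summit, and −log10 p and −log10 q values, all of them the authors' own values. They were used only to rank or filter peaks within a list.

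Peaks of the autosomes and chromosome X were merged at an overlap of at least 1 bp. Windows were RefSeq gene spans (GRCh38.p14, no exons) plus 100 kb; strand came from the RefSeq promoter table. Values per library were set against each other by exact permutation, two-sided. Rank scores were tested with limma 3.58.1 in R 4.3.3 with a mean-variance trend and Benjamini-Hochberg adjustment over 62686 regions. A run on simulated scores drew independent errors from the fitted model, so it could not test whether that model holds for these lists. Other steps used Python 3.11.15, numpy 2.4.6, pandas 2.3.3, scipy 1.17.1 and matplotlib 3.10.9. By rule the text could name all 8 members, their gene-end regions, one-genotype regions and regions past an adjusted p of 0.05. It could also name the 3 regions of highest mean rank, genes in the windows, genes within 2 Mb of EGFR and the 2 nearest start regions. From each pathway list it could name up to 4 genes with the largest difference between KO-only and WT-only counts. Not every region that the rule allowed is named. The members, lists, tests and this rule were chosen with earlier results of these data known. Alternatives were list length, a −log10 q of at least 5, flanks of 50 kb or none, an overlap of 100 bp, ranking by fold, no trend, a replicate block and leaving out each library. Some genes of the lists are not reported here.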

Additional observations from a re-analysis of the deposited data

How the results depend on the processing

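Values here are DEK KO minus WT control differences in mean peaks per window, or counts. With lists of equal length the count of KO-only regions was 6 in place of 13 (2.61%, against 5.16% of all regions), as it was with a −log10 q of at least 5 (3.19%, against 6.54%), and the gene span alone held 7 KO-only and 7 WT-only regions. Leaving out 1 library gave 19 to 44 KO-only and 13 to 22 WT-only regions. The MET difference of 1.5 peaks became -2 with equal lists, -1.5 with 50 kb flanks and -1 with none. ERBB2 became -0.5 with equal lists and 0 at the −log10 q limit, AXL became -1.5 and -1 under these settings, and VEGFC became -1.5 at that limit. Leaving out 1 library gave -1 to 4 for MET and 0 to 5 for ERBB2. EGFR (-11 to -4.5), TGFA (4 to 9.5) and the EGFR share of its neighbourhood kept their direction in every setting run, as did HGF (0.5 to 6.5) and GAS6 (0.5 to 6), whose genotypes overlapped with equal lists (1 and 2.5) and in the gene span alone (0.5 each). Ranked by fold, 0 regions were called higher and 0 lower, and the EGFR median was 0.0036. Without a mean-variance trend 1 was called higher and 1 lower, while the calls of the whole series fell from 2213 and 1492 to 480 and 199. Leaving out 1 library, where the lone library is assumed to vary like the other group, gave 0 to 8 higher and 0 to 9 lower. Single start regions changed sign without passing the test: MET to -0.034 by fold and -0.25 to 0.87 when 1 library was left out, EGFR to 0.16 by fold, and AXL to values of -0.23 to 0.21 when 1 library was left out. The cause of these changes was not tested. The replicate numbers were not shown to pair the libraries (correlation of same-numbered deviations 0.016). With the replicate number as a block, 5 were called higher and 9 lower (3125 and 2383 in the whole series), and the 10 calls remained. Peak lists without counts give no depth per region, so the absence of a peak is a result of the authors' threshold.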
